A study of Homo sapiens with 16 samples.

Results

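The proteasome genes described here are the 46 rows, of 16558 in the deposited expression table, whose symbols name subunits of the proteasome (PSMA, PSMB, PSMC and most PSMD genes), its activators (PSME), its inhibitor (PSMF1) or its dedicated assembly chaperones (PSMG and a few PSMD genes). They were chosen by symbol, with earlier results of these data known, and antisense transcripts and pseudogenes were left out. They comprised 7 alpha and 7 constitutive beta genes of the 20S core, 3 inducible beta genes, 9 genes of the 19S base, 8 of the 19S lid, 4 activator genes, 1 inhibitor gene and 7 chaperone genes. PSMA8 and PSMB11 were not analysed here. All 46 had a mean of at least 1 per-million unit over the libraries, the level required for testing, as did 13095 genes in all.

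The libraries came from HepG2, a human hepatoma cell line that makes many liver proteins, in which prime editing, a Cas9 nickase fused to a reverse transcriptase, had set the genotype at the methionine-for-isoleucine variant site of PNPLA3, a lipid droplet protein. The groups were GG under palmitic acid and GG control (clones 1, 2 and 6), GC under palmitic acid and GC control (clones 2, 3 and 4), and CC under palmitic acid and CC control (clones 1 and 3). Each number in a title was read as 1 edited line, called a clone here, with 1 treated and 1 control library, so that 16 libraries formed 8 pairs. The treatment was 250 µM palmitic acid, a saturated fatty acid, for 48 h by the protocol; the sample labels run from 48 to 55 h in the order in which the samples are listed, and the vehicle of the controls is not given in the sources used here. Whether a clone grew from 1 edited cell is likewise not given, a single RNA library stands for each clone and treatment, and p-values measure the spread between these libraries.

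The proteasome degrades proteins that carry ubiquitin chains. Its 20S core is a barrel of alpha rings around beta rings, and PSMB5, PSMB6 and PSMB7 encode the beta subunits that cut peptide bonds; interferon exchanges them for PSMB8, PSMB9 and PSMB10, which gives the immunoproteasome. The 19S particle caps the barrel: its base holds the PSMC ATPases that unfold substrates together with the large scaffold subunits PSMD1 and PSMD2 and the ubiquitin receptor PSMD4, and its lid holds PSMD14, the enzyme that removes the ubiquitin chain. When proteasome activity falls, the transcription factor NRF1, encoded by NFE2L1 and cut by the protease DDI2, raises proteasome genes together through antioxidant response elements, which it binds with a small MAF protein.

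Promoter sequences are shown for 4 genes as examples. They are the lid genes PSMD14 and PSMD6, called higher under palmitic acid, and the inducible core genes PSMB8, called lower, and PSMB10, not called. Each is the RefSeq window of GRCh38.p14 from 250 bases before to 50 bases after the gene's start, written 5′ to 3′ on the gene's own strand. In PSMD14 (chr2:161308175-161308474, plus strand) and PSMD6 (chr3:64023445-64023744, minus strand) the capitals mark CCAAT, the NF-Y box, on either strand. PSMD14 holds it on both strands, in 2 overlapping matches. In PSMB8 (chr6:32843998-32844297, minus strand, the nearer to the gene body of its 2 windows) and PSMB10 (chr16:67936801-67937100, minus strand) the capitals mark GAAANNGAAA on either strand. This is the core of the interferon-stimulated response element. The other PSMB8 window had no match, and neither did PSMB9, also an inducible core gene.
PSMD14: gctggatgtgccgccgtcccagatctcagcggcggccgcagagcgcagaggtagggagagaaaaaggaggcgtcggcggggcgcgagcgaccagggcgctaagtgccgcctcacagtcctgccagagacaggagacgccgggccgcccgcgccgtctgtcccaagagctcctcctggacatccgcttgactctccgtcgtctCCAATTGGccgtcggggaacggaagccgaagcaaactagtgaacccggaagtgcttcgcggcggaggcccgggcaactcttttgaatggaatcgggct
PSMD6: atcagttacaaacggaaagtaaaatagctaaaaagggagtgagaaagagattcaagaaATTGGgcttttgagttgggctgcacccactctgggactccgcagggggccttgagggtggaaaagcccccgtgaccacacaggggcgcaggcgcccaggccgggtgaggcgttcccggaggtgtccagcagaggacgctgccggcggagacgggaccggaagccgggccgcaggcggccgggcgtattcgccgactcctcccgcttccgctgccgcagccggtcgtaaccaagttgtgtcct
PSMB8: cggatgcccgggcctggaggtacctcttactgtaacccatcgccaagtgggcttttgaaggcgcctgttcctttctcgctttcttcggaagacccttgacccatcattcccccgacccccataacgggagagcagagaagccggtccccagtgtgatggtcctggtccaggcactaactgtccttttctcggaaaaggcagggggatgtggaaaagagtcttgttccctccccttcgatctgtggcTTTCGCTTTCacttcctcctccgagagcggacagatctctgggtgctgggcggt
PSMB10: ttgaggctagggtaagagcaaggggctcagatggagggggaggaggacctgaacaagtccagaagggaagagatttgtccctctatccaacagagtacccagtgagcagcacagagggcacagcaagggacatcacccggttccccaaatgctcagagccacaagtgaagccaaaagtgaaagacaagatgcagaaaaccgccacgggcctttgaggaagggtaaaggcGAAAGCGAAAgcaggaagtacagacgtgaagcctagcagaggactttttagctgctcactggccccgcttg

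The RefSeq table held 49 such windows for 40 of the 46 genes. GAAANNGAAA occurred in 7 of the 49 windows, 14.3%, against 3.57% of all 35116 windows, and the 7 genes were PSMB8, PSMB10, PSME1, PSME2, PSMA4, PSMB4 and PSMG4. The core of the antioxidant response element, TGACNNNGC on either strand, occurred in 15 of the 49, 30.6%, against 13.3% of all windows. CCAAT occurred in 19 of the 49, 38.8%, against 34.6% of all windows. Windows of genes that share a promoter region overlap, and a match is a run of letters, not a shown binding site. Of the 5 genes called higher under palmitic acid, PSMD14, PSMD6, PSMD7 and PSMB2 had a CCAAT match in their window and PSMD2 had none, and none of the 5 windows had the TGACNNNGC match.

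Libraries held 9314342 to 15777669 reads over the listed genes, and the treated library of CC clone 3 was the shallowest. The liver genes ALB, AFP, TTR, SERPINA1, APOA1, HNF4A and TF were all measured. AFP measured 2595 to 15074 units under palmitic acid and 5438 to 18692 units in controls. Of these 7, 5 (ALB, AFP, APOA1, HNF4A and TF) fell under palmitic acid (71.4%), where 9.52% of all tested genes were called lower. Their log2 changes were -0.40, -0.54, -0.45, -0.27 and -0.49. Without CC clone 3 they were -0.35, -0.36, -0.27, -0.15 and -0.31. None of the 5 passed in a limma fit without pairing by clone. The part of the liver genes in the proteasome results was not tested. In bulk libraries a change in the mix of cell states and a change per cell cannot be told apart. The defining leukocyte genes PTPRC and CD3E, the fibroblast genes COL1A2 and LUM and the endothelial genes VWF and KDR had no row, and COL1A1, PDGFRA, CDH5 and ITGAM were each at 1.84 units or below. CC clone 3 stood apart from the other clones in its change under palmitic acid: the SD of the log2 change over all tested genes was 0.567 in that clone and between 0.311 and 0.404 in the other 7. Calls, class medians and ratios under palmitic acid are therefore also given without this clone. In the limma mean over the 3 genotypes each genotype weighs equally. Without CC clone 3 its CC part is therefore clone 1 alone.

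Averaged over the 3 genotypes, the changes of proteasome genes under palmitic acid were small and mostly positive. The log2 change was positive for 38 of the 46 and negative for 8, with a median of 0.12 against -0.01 over all tested genes. By limma with clone as a block and Benjamini-Hochberg adjustment over all 13095 genes, 6 of the 46 passed an adjusted p of 0.05, which is 13%, against 18.9% of all tested genes. The share of proteasome genes called was thus not above the background. PSMD2, PSMD14, PSMD6, PSMD7 and PSMB2 were higher under palmitic acid (9.33% of all genes were called higher), and PSMB8 was lower (9.52% of all genes were called lower). Before adjustment, 22 of the 46 had a p under 0.05, against 34.1% of all genes.

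**Figure D1:**
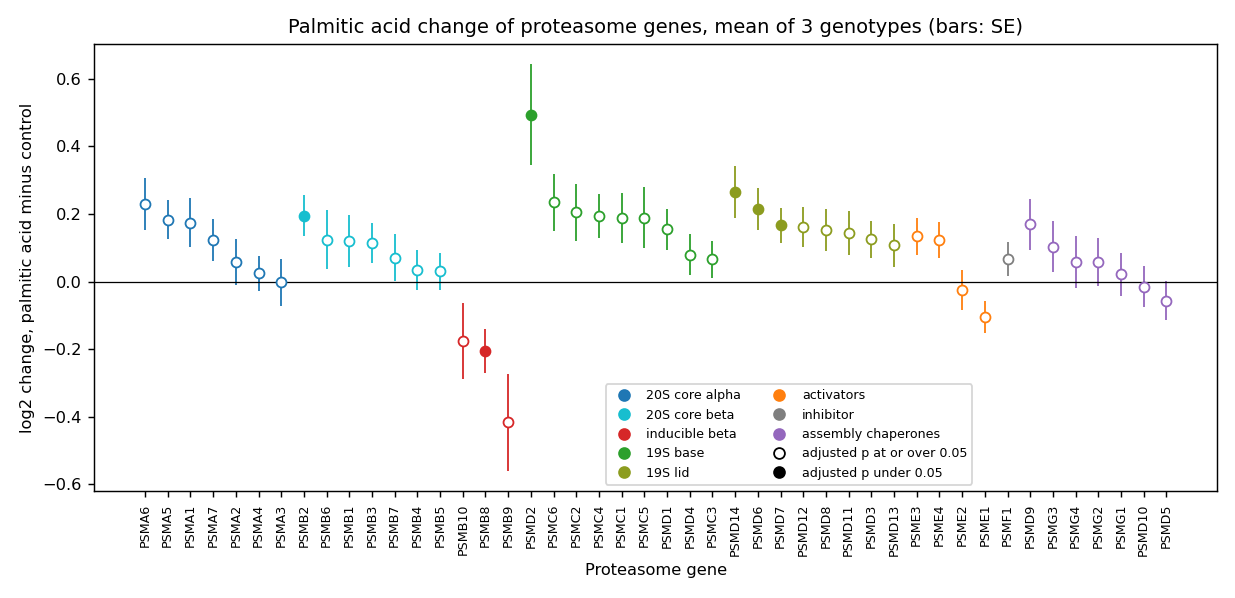
Log2 change under palmitic acid (palmitic acid minus control, mean of the 3 genotypes, vertical axis) of each of the 46 proteasome genes, grouped and coloured by class; bars are standard errors of the limma fit and filled points passed an adjusted p of 0.05. All 17 genes of the 19S base and lid lie above 0, with PSMD2 highest at 0.49, and the 3 inducible beta genes lie below 0, with PSMB9 lowest at -0.42.

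The 19S genes held 4 of the 6 calls, which is 23.5% of their 17 genes, against 18.9% of all tested genes. Of the 9 base genes 1 rose (11.1%) and of the 8 lid genes 3 rose (37.5%). All 17 had a positive change, with a median of 0.19 in the base and 0.16 in the lid. In the constitutive core, 1 of 14 genes rose and 13 of 14 changes were positive, with medians of 0.12 for the alpha and 0.11 for the beta genes. The inducible beta genes had 1 of 3 called lower and a median of -0.21. None of the 4 activator genes, the inhibitor gene or the 7 chaperone genes passed, with medians of 0.05, 0.07 and 0.06. Without CC clone 3, none of the 46 passed, 9.58% of all genes did, and the median over the 46 was 0.06. The class medians were then 0.10 for the base, 0.09 for the lid, 0.03 for the alpha genes, -0.01 for the constitutive beta genes, -0.15 for the inducible beta genes, 0.03 for the activators and 0.05 for the chaperones, and the inhibitor gene had 0.08. Leaving out GG clone 1, GG clone 2 or any of the 3 GC clones also left none, and leaving out GG clone 6 gave 4 (PSMD14, PSMD7, PSMA6 and PSME3). Leaving out CC clone 1 raised the number called, among the 46 and among all tested genes, but CC is then clone 3 alone. The median log2 change was then 0.19 over the 46 and -0.01 over all tested genes. With group means in place of the clone block none passed, 1 had an unadjusted p under 0.05 and 6 genes passed in all; that fit sets the change against the spread between clones.

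PSMD2 (also called RPN1 in yeast), the base scaffold that docks ubiquitin carriers and the deubiquitinase USP14, had the largest change of the 46. It lies at chr3:184298709-184309054 on the plus strand (GENCODE release 29, GRCh38). In GG clones 1, 2 and 6 it measured 308, 282 and 448 per-million units under palmitic acid, against 259, 238 and 259 units in the controls. In GC clones 2, 3 and 4 it measured 228, 342 and 260.2 units under palmitic acid, against 193, 224 and 267 units in the controls. In CC clones 1 and 3 it measured 281 and 604 units under palmitic acid, against 289 and 197 units in the controls. The treated library was the higher in 6 of 8 clones, and the ranges of treated and control libraries overlapped. The mean log2 change was 0.49 ± 0.15 (SE; limma adjusted p = 0.03941), and it was 0.22 without CC clone 3 (limma adjusted p = 0.181).

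PSMD14, the lid's zinc-dependent deubiquitinase, lies at chr2:161308038-161411717 on the plus strand, and its promoter is the PSMD14 sequence above. In GG clones 1, 2 and 6 it measured 108, 97.4 and 140.3 units under palmitic acid, against 90.01, 78.5 and 152 units in the controls. In GC clones 2, 3 and 4 it measured 73.2, 84.1 and 85.1 units under palmitic acid, against 64.9, 66.6 and 71.7 units in the controls. In CC clones 1 and 3 it measured 105 and 152 units under palmitic acid, against 101 and 91.4 units in the controls. GG clone 6 alone had the lower value under treatment. The mean log2 change was 0.27 ± 0.08 (SE; limma adjusted p = 0.03263), and 0.15 without CC clone 3 (limma adjusted p = 0.1853).

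PSMD6, a structural lid subunit at chr3:64010549-64024010 on the minus strand, was higher in the treated library of all 8 clones, as was PSMA5, an alpha subunit. They were 2 of the 46, 4.35%, whereas 13.6% of all tested genes moved the same way in 8 of 8 clones, and 16 of the 46, 34.8%, moved the same way in at least 7 clones, against 33.1% of all genes. In GG clones PSMD6 measured 56.0, 67.7 and 65.5 units under palmitic acid, against 52.9, 63.1 and 58.1 units in the controls. In GC clones it measured 67.6, 49.4 and 45.9 units under palmitic acid, against 58.9, 48.1 and 37.7 units in the controls. In CC clones it measured 58.7 and 64.1 units under palmitic acid, against 54.2 and 42.0 units in the controls. The increases were small against the distance between clones except in CC clone 3. The mean log2 change was 0.22 ± 0.06 (SE; limma adjusted p = 0.03249), and 0.13 without CC clone 3 (limma adjusted p = 0.1853). PSMA5 had a mean log2 change of 0.18 and did not pass (limma adjusted p = 0.05096).

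The other 2 genes called higher moved less. PSMD7, the partner of PSMD14 in the lid (chr16:74296775-74306288, plus strand), spanned 105 to 140.5 units with a median of 123 units under palmitic acid, against 88.5 to 138 units with a median of 106 units in the controls. Its log2 change was 0.17 ± 0.05 (SE; limma adjusted p = 0.04655), higher in 6 of 8 clones, and 0.12 without CC clone 3 (limma adjusted p = 0.2213). It was the gene with the smallest p among the 46 in GC clones, at 0.30 ± 0.08 (SE; limma adjusted p = 0.09428). PSMB2, a core beta subunit that does not cut (chr1:35599544-35641844, minus strand), spanned 121 to 199 units with a median of 152 units under palmitic acid, against 104 to 180.3 units with a median of 139 units in the controls. Its log2 change was 0.20 ± 0.06 (SE; limma adjusted p = 0.04613), higher in 7 of 8 clones, and 0.10 without CC clone 3 (limma adjusted p = 0.2525).

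The remaining core and 19S genes did not pass. Among the alpha genes the changes ran from -0.00 for PSMA3 to 0.23 ± 0.08 for PSMA6 (SE; limma adjusted p = 0.05916), close to the threshold. PSMA6 spanned 109 to 258 units with a median of 213 units under palmitic acid, against 86.0 to 277 units with a median of 176 units in the controls, so that clones lay much further apart than treatments. Among the other constitutive beta genes the changes ran from 0.03 for PSMB5 to 0.12 for PSMB6. The base ATPases PSMC1, PSMC2, PSMC4 and PSMC6 had changes of 0.19, 0.20, 0.20 and 0.24 with limma adjusted p-values of 0.09865, 0.1109, 0.05768 and 0.07256, and PSMC3 had 0.07. PSMD1, the other base scaffold, changed by 0.15, and the ubiquitin receptor PSMD4 by 0.08. The lid genes PSMD12, PSMD8, PSMD11, PSMD3 and PSMD13 had changes of 0.16, 0.15, 0.14, 0.13 and 0.11, with limma adjusted p-values between 0.07805 and 0.2536.

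**Figure D2:**
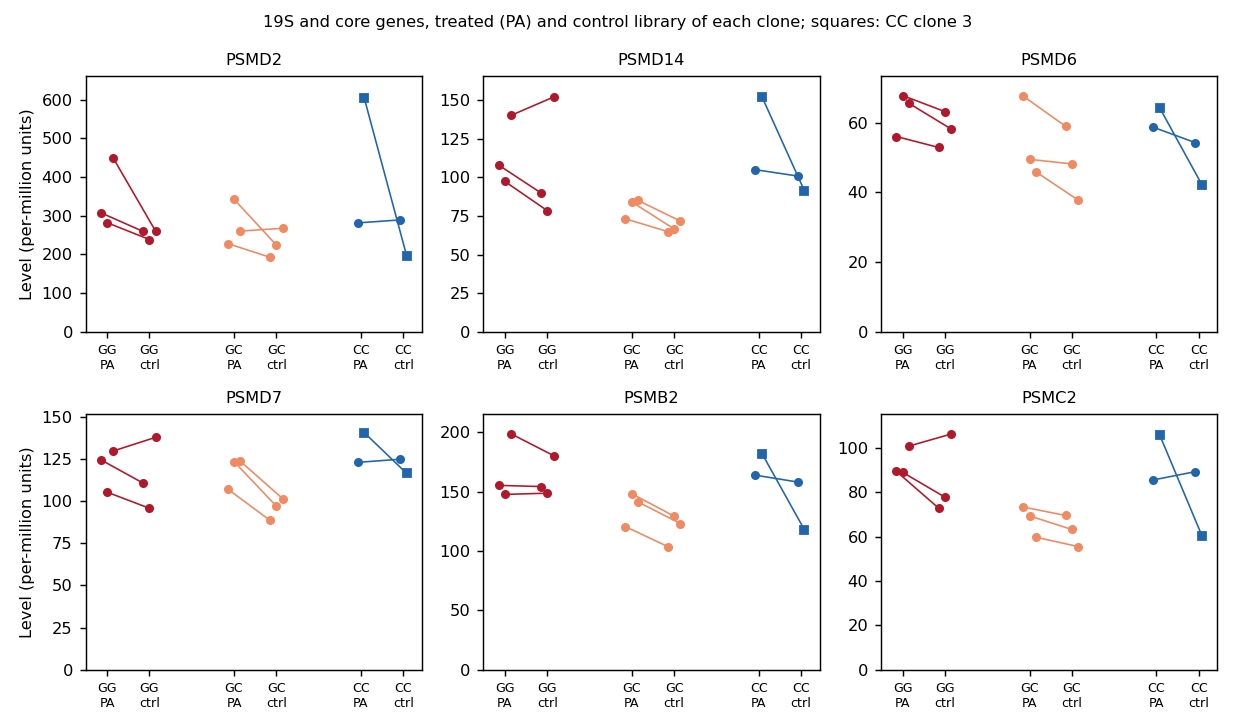
Level in per-million units (vertical axes, from 0) of the 5 genes called higher and of PSMC2, a base ATPase, in each treated library (PA, left in each pair) and its control (ctrl, right), joined by clone and coloured by genotype; squares are CC clone 3. The square pair has the steepest slope in the PSMD2, PSMD14, PSMD6, PSMB2 and PSMC2 panels, and GC clones lie low for PSMC2, between 59.7 and 73.4 units under palmitic acid and between 55.5 and 69.5 units in controls.

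Relative to the core, the 19S sums were higher in most treated libraries than in their controls. The summed level of the 9 base genes over that of the 14 constitutive core genes was 0.492 to 0.633, with a median of 0.515, under palmitic acid, against 0.439 to 0.539, with a median of 0.471, in the controls, and was the higher under treatment in 7 of 8 clones, all but GC clone 4. Without PSMD2 the same ratio had a median of 0.356 under palmitic acid and 0.345 in the controls, and was the higher under treatment in 6 of 8 clones. The lid ratio had a median of 0.484 under palmitic acid and 0.466 in the controls, and was the higher under treatment in 7 of 8 clones, all but GC clone 2. Over the 7 clones other than CC clone 3, the base ratio had a median of 0.513 under palmitic acid and 0.473 in the controls. Without PSMD2 as well, these medians were 0.356 under palmitic acid and 0.350 in the controls, nearly level. The lid ratio over these 7 clones had a median of 0.479 under palmitic acid and 0.462 in the controls. These ratios describe the libraries and were not tested.

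The 3 inducible core genes had negative changes, and 1 of them passed. PSMB8, which takes the place of PSMB5 and lies in the major histocompatibility region at chr6:32840717-32844703 on the minus strand, measured 28.3, 12.7 and 17.4 units under palmitic acid in GG clones 1, 2 and 6, against 28.2, 14.0 and 18.96 units in the controls. In GC clones 2, 3 and 4 it measured 25.7, 24.6 and 27.9 units under palmitic acid, against 29.03, 28.3 and 28.2 units in the controls. In CC clones 1 and 3 it measured 26.1 and 15.6 units under palmitic acid, against 30.6 and 23.6 units in the controls. It was lower under treatment in 7 of 8 clones, and level in GG clone 1. The mean log2 change was -0.21 ± 0.06 (SE; limma adjusted p = 0.04593), and -0.15 without CC clone 3 (limma adjusted p = 0.2262).

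PSMB9, which takes the place of PSMB6 and starts beside PSMB8 on the opposite strand (chr6:32844136-32859585), was a low gene, with 11 to 99 reads per library. In GG clones it measured 7.37, 2.45 and 2.01 units under palmitic acid, against 5.95, 1.82 and 2.10 units in the controls. In GC clones it measured 2.52, 4.74 and 5.06 units under palmitic acid, against 4.05, 6.50 and 6.68 units in the controls. In CC clones it measured 4.29 and 1.19 units under palmitic acid, against 5.44 and 4.87 units in the controls. All 5 GC and CC clones were lower under treatment, and GG clones 1 and 2 were higher. Its mean log2 change of -0.42 ± 0.14 (SE) did not pass (limma adjusted p = 0.06299). The change was -0.19 without CC clone 3 and -0.64 without CC clone 1, where CC is clone 3 alone. In CC clones alone the change was -0.99 ± 0.28 (SE; limma adjusted p = 0.08923), and the difference between the GG and CC changes was 1.18 ± 0.36 (SE; limma adjusted p = 0.7972).

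PSMB10, which takes the place of PSMB7, spanned 4.02 to 10.9 units with a median of 10.1 units under palmitic acid, against 5.93 to 12.3 units with a median of 9.81 units in the controls. Its mean log2 change was -0.18 ± 0.11 (SE; limma adjusted p = 0.2994), with 5 of 8 clones lower. PSMB8 and PSMB9 share 139 exonic bases, and PSMB8 shares 618 with the antisense transcript PSMB8-AS1, which measured 0.217 to 0.938 units under palmitic acid and 0.396 to 1.37 units in controls. The library kit keeps strand, but whether the counting used it is not given in the sources used here, so reads of these genes may not be fully told apart. The same limit holds for other members that overlap opposite-strand transcripts, some of them called higher. PSMD6 shares 352 exonic bases with PSMD6-AS2, PSMD7 shares 842 with AC009120.2 and PSMD14 shares 159 with AC009299.3. PSMD6-AS2 measured 1.77 to 2.92 units under palmitic acid and 2.28 to 4.75 units in controls.

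None of their constitutive counterparts was called. PSMB5, the chymotrypsin-like subunit, measured 401, 407 and 419 units under palmitic acid in GG clones, against 363, 453 and 417 units in the controls. In GC clones it measured 354, 281 and 211 units under palmitic acid, against 313, 279 and 206 units in the controls. In CC clones it measured 378 and 390.1 units under palmitic acid, against 408 and 352 units in the controls. The GC clones were the low ones in both conditions, and treated and control libraries overlapped. PSMB5, PSMB6 and PSMB7 had mean log2 changes of 0.03, 0.12 and 0.07, none past the threshold (limma adjusted p of 0.7307, 0.341 and 0.4985). The log2 ratio of PSMB8 to PSMB5 changed by -0.21 on average under palmitic acid, that of PSMB9 to PSMB6 by -0.47 and that of PSMB10 to PSMB7 by -0.19, with the lowest value in CC clone 3 each time (-0.73, -2.06 and -1.39). Over the other 7 clones the mean changes of these ratios were -0.14, -0.24 and -0.01, in the same order. The 3 inducible genes together amounted to 0.0103 to 0.0283 of the constitutive core sum under palmitic acid and 0.0120 to 0.0307 in the controls.

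**Figure D3:**
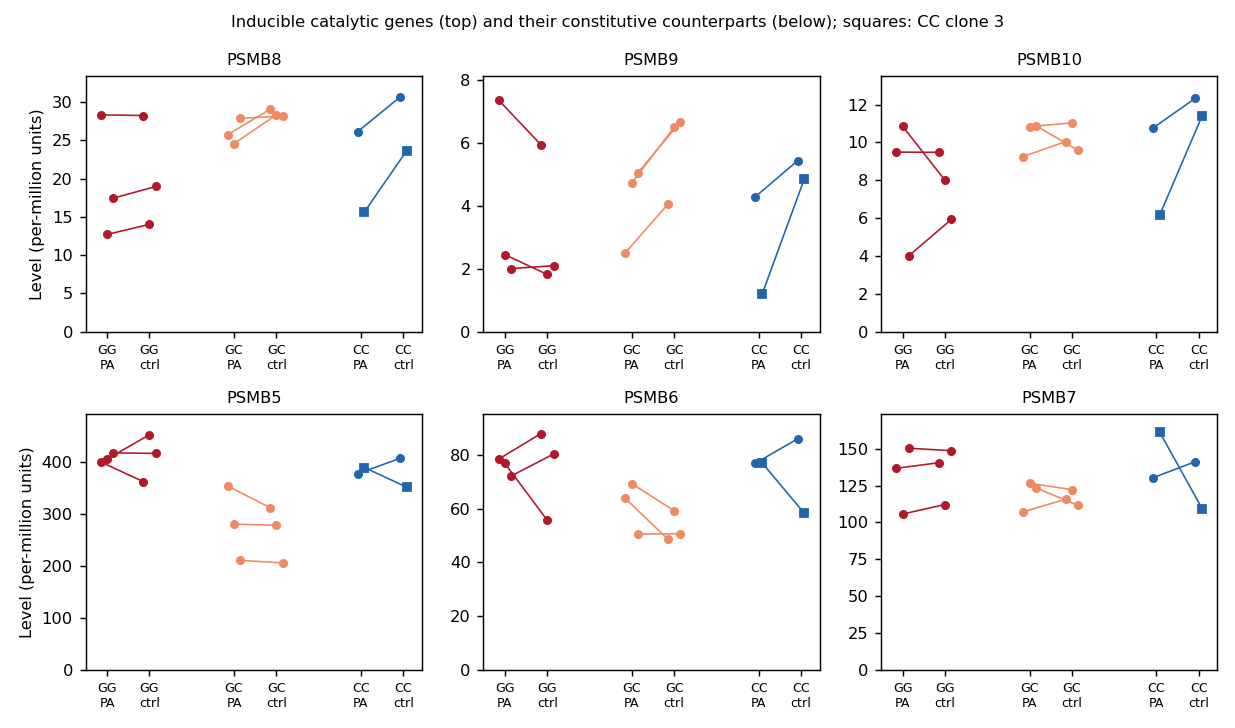
Levels in per-million units (vertical axes, from 0) of the inducible catalytic genes PSMB8, PSMB9 and PSMB10 (top row) and of the constitutive PSMB5, PSMB6 and PSMB7 (bottom row) in each treated library (PA, left in each pair) and its control (ctrl, right), joined by clone; squares are CC clone 3. In CC clone 3 the 3 upper genes are lower under palmitic acid, PSMB9 at 1.19 units under palmitic acid against 4.87 units in the control, while the 3 genes of the bottom row are higher, PSMB7 at 161 units under palmitic acid against 109 units in the control.

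Of the activators, PSME1 and PSME2 encode the interferon-inducible PA28 ring, PSME3 its nuclear relative and PSME4 the PA200 cap. Their mean log2 changes were -0.11, -0.02, 0.13 and 0.12, and none passed (limma adjusted p from 0.1093 to 0.8041). PSME1 measured 109 to 197 units with a median of 160.3 units under palmitic acid, against 123 to 216 units with a median of 164 units in the controls, and was lower under treatment in 6 of 8 clones. PSME2 was lower in 4 of 8 clones. PSMF1, which encodes the inhibitor PI31, changed by 0.07 (limma adjusted p = 0.3797). The chaperones, which help assemble the alpha ring (PSMG1 to PSMG4) or the base (PSMD5, PSMD9 and PSMD10), had changes from -0.06 for PSMD5 to 0.17 for PSMD9, none past the threshold.

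In CC clone 3 all 31 constitutive core and 19S genes were higher in the treated library, by a median log2 change of 0.46 and a range of 0.15 to 1.61, the largest being PSMD2. In that clone 32 of the 46 proteasome genes, 69.6%, exceeded a 1.2-fold increase, against 24.2% of all tested genes. In the other 7 clones 0 to 9 of the 46 did so, 0 to 19.6%, against 12.7% to 16.7% of all genes. CC clone 3 had the largest change of the 8 clones for 24 of the 31 genes. Its values included 0.81 for PSMC2, 0.73 for PSMD14, 0.62 for PSMC6, 0.62 for PSMB1 and 0.60 for PSMD6. Its chaperone genes had a median change of 0.07, and PSMB8, PSMB9, PSMB10, PSME1 and PSME2 changed by -0.58, -1.66, -0.83, -0.35 and -0.31. This is 1 pair of libraries with no replicate, and its treated library is also the shallowest; the part that depth or culture played was not tested.

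CC clone 1, of the same genotype and treatment, did not show this pattern. There 9 of the 31 genes were higher and 22 lower, with a median of -0.04, and none of the 46 exceeded a 1.2-fold increase. PSMC2 measured 85.5 units under palmitic acid in CC clone 1, against 89.3 units in its control, whereas in CC clone 3 it measured 106 units under palmitic acid, against 60.2 units in its control. The 46 genes of CC clone 3 summed to 5959 units under palmitic acid, against 4412 units in its control, whereas those of CC clone 1 summed to 5357 units under palmitic acid, against 5562 units in its control. The control library of CC clone 3 was thus the low one of the pair of CC controls. Of the other clones, GC clones 2 and 3 had 29 of the 31 genes higher each, GG clone 1 and GC clone 4 had 24 each, GG clone 2 had 21 and GG clone 6 had 16.

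**Figure D4:**
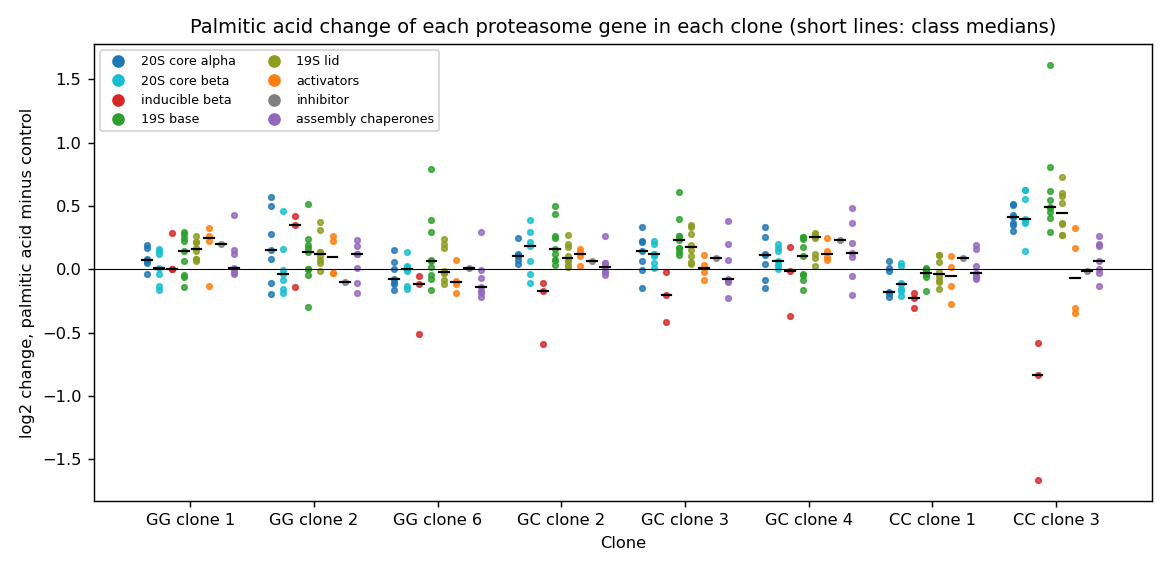
Log2 change under palmitic acid (palmitic acid minus own control, vertical axis) of each proteasome gene (points, coloured by class) in each of the 8 clones (horizontal axis); short black lines are class medians. The core and 19S classes of CC clone 3 have medians between 0.40 and 0.49 while its inducible beta genes have a median of -0.83; class medians of the other clones lie between -0.23 and 0.35.

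Tested within each genotype, none of the 46 genes passed: in GG 0.84% of all genes passed, in GC 1.54% and in CC 2.3%. Before adjustment 1 of the 46 had a p under 0.05 in GG (15.7% of all genes), 3 in GC (17.6%) and 12 in CC (20.5%). The 12 in CC were PSMB9, PSMB8, PSMB10, PSME1 and PSME2 on the lower side and PSMD2, PSMD6, PSMD12, PSMD14, PSMB2, PSMC2 and PSMA5 on the higher side. Without CC clone 1 the CC change is that of clone 3 alone, tested on the assumption that it varies like the other clones, so its calls are not counted here. Differences between genotypes in the change under palmitic acid did not pass for any of the 46, and unadjusted p-values were under 0.05 for 0 genes between GG and GC, 2 between GG and CC (PSMB9 and PSME2) and 1 between GC and CC (PSME2). For these the background was 1.75%, 5.86% and 4.68% of all genes, and after adjustment 0 of 13095 genes passed between GG and GC and 1 (0.00764%) in each of the other comparisons. edgeR and DESeq2 on the recovered reads called 0 of the 46 in each of these comparisons as well.

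Apart from treatment, the 3 GC clones had low levels of many core and 19S genes. The 46 genes summed to 5451 ± 364 units in GG and 4629 ± 194 units in GC under palmitic acid (SD, n = 3 each), and to 5658 ± 426 units in CC (SD, n = 2). In controls the sums were 5151 ± 461 units in GG, 4232 ± 133 units in GC (SD, n = 3 each) and 4987 ± 813 units in CC (SD, n = 2). Every GG control lay above every GC control for 14 of the 46 genes, 30.4%, against 5.99% of all tested genes, and below for PSMB10 alone, against 6.32%. Under palmitic acid every GG library lay above every GC library for 13 genes, 28.3%, against 6.14%, and below for PSMF1 and PSMG4, against 5.75%. Every GC library lay below every CC library for 17 of the 46 under palmitic acid, 37.0%, against 12.3% of all genes, and for 15 in controls, 32.6%, against 12.5%. GG lay above CC for 3 genes under palmitic acid (6% of all genes) and below for 4 (5.57%). In controls GG lay above CC for PSMD4 alone (4.17%) and below for PSMB10 and PSMG4 (5.19%).

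**Figure D5:**
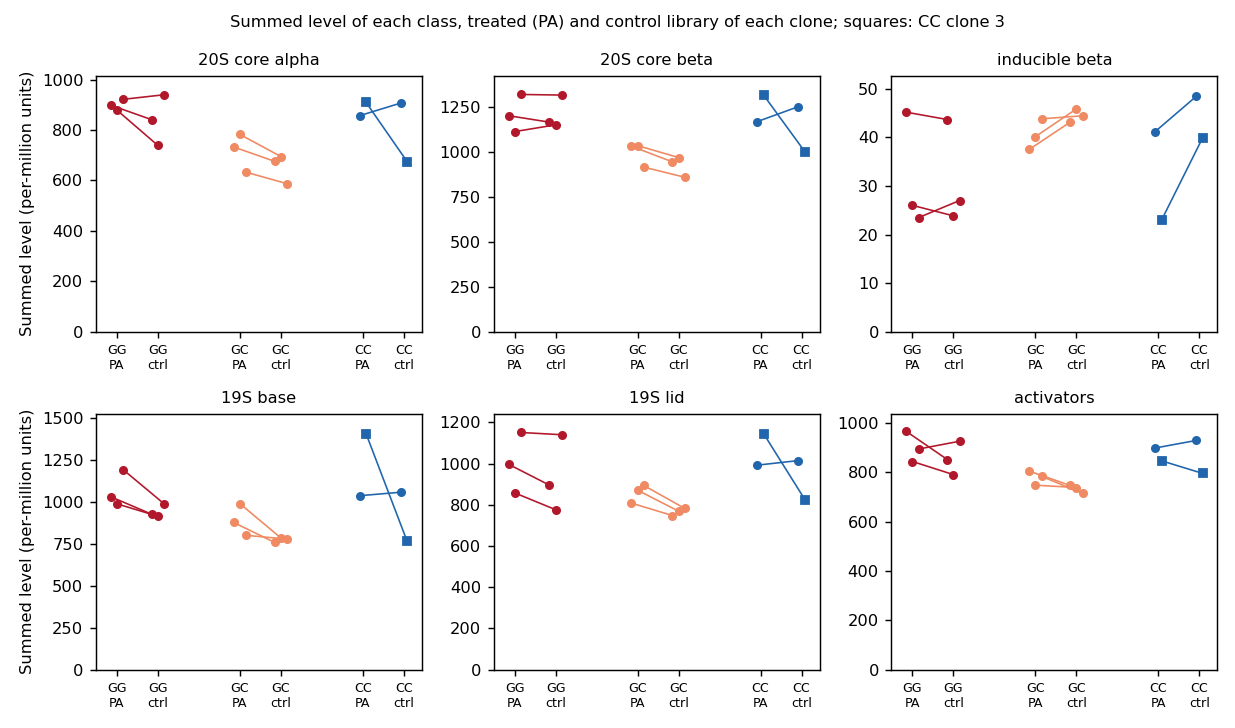
Summed level in per-million units (vertical axes, from 0) of 6 proteasome gene classes in each treated library (PA, left in each pair) and its control (ctrl, right), joined by clone and coloured by genotype; squares are CC clone 3. For both 20S core classes the 3 GC clones lie below the GG and CC clones under palmitic acid, and the base sum of CC clone 3 is 1409 units under palmitic acid against 768 units in its control.

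These genotype differences did not pass the test across all genes, where 0 genes passed in any comparison of controls or between GG and GC under palmitic acid, and 1 (0.00764%) passed against CC under palmitic acid for GG and for GC. PSMB5 had the smallest p of the 46 between GG and GC controls, with a log2 difference of 0.64 ± 0.19 (SE; limma adjusted p = 0.7398), and PSMC4, a base ATPase, followed with 0.55 ± 0.16 (SE; limma adjusted p = 0.7398). PSMC4 measured 86.5, 90.6 and 121 units in GG controls, against 78.0, 62.1 and 62.5 units in GC controls, with no overlap. Unadjusted p-values were under 0.05 for 12 of the 46 between GG and GC controls (6.65% of all genes), 1 between GG and CC controls (1.19%) and 6 between GC and CC controls (3.12%). Under palmitic acid they were under 0.05 for 9 genes between GG and GC (6.03%), 0 between GG and CC (1.84%) and 10 between GC and CC (8.37%). Nor did any of the 46 pass by edgeR or DESeq2. GG and CC clones are each set against the same GC libraries here, so these comparisons share samples. Among the controls GG clone 6 had the highest level of 14 of the 31 core and 19S genes and CC clone 1 of 12, and GC clone 4 had the lowest of 11, GC clone 2 of 8 and CC clone 3 of 7.

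Per kilobase of transcript (median length of the principal GENCODE transcripts), levels differed more between genes than between libraries. PSMB5 was highest with 274 ± 56.0 units per kilobase under palmitic acid and 270 ± 62.5 in controls (SD, n = 8 each). PSME3 followed with 229 ± 26.9 under palmitic acid and 209 ± 34.9 in controls, and PSMA6 came next at 199.8 ± 49.5 under palmitic acid and 174 ± 53.6 in controls. Each of these 3 differed from the next in the order by less than the larger of their SDs. The lowest were PSMB9, at 4.74 ± 2.60 units per kilobase under palmitic acid and 5.98 ± 2.41 in controls, and PSMD9, at 6.79 ± 0.931 under palmitic acid and 5.98 ± 0.553 in controls. Class medians under palmitic acid were 151 for the constitutive beta, 125 for the activator, 60.7 for the lid, 55.3 for the alpha, 48.5 for the base, 16.8 for the chaperone and 7.42 for the inducible genes. In controls they were 141, 129.6, 53.0, 53.2, 42.8, 16.2 and 7.99 in the same order of classes.

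Genes that work with the proteasome were taken as lists from textbook knowledge, with earlier results of these data known. Their called shares are therefore descriptive and not an independent comparison with all genes. In the comparison over the 3 genotypes, 9.33% of all genes were called higher, 9.52% lower and 18.9% in either direction. Of 13 partner proteins, 3 rose (23.1%): ZFAND5, which activates the proteasome, by 0.36 ± 0.07 (SE; limma adjusted p = 0.004907), SEM1, listed as SHFM1, a small lid subunit, by 0.39, and USP14, the deubiquitinase bound to PSMD2, by 0.19. ZFAND5 measured 112, 99.5 and 171 units under palmitic acid in GG clones, against 98.3, 78.1 and 135 units in the controls, and was higher under treatment in 8 of 8 clones. It alone of the 3 still passed without CC clone 3 (limma adjusted p = 0.01332). Of 7 genes that extract ubiquitinated proteins, 3 rose (42.9%), namely VCP by 0.21 and its cofactors NPLOC4 by 0.20 and UFD1, listed as UFD1L, by 0.29, and none passed without CC clone 3. UBA6, a ubiquitin-activating enzyme, was the 1 of 8 ubiquitin genes (12.5%) that rose, by 0.16, and not without CC clone 3. None of 3 further assembly factors passed, among them POMP at 0.23 (limma adjusted p = 0.05793).

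Of 9 genes that control proteasome transcription, 3 rose and 2 fell, so that 55.6% were called, against 18.9% of all genes. MAFK, a small MAF partner of NRF1 and NRF2, measured 22.3, 23.1 and 32.3 units under palmitic acid in GG clones, against 14.4, 15.0 and 18.5 units in the controls. In GC clones it measured 19.3, 28.3 and 28.1 units under palmitic acid, against 15.5, 11.4 and 16.2 units in the controls, and in CC clones it measured 11.7 and 38.8 units under palmitic acid, against 10.4 and 22.0 units in the controls. It was higher in 8 of 8 clones, by 0.65 ± 0.11 (SE; limma adjusted p = 0.002552), and MAFG and MAFF rose by 0.32 and 0.35. DDI2, the protease that activates NRF1, fell by 0.35 (SE 0.06; limma adjusted p = 0.002982). It measured 41.5 to 55.4 units under palmitic acid and 52.4 to 71.9 units in the controls, lower in 8 of 8 clones. NFE2L2, which encodes NRF2, fell by 0.16, and NFE2L1 itself changed by -0.05 (limma adjusted p = 0.5164). Without CC clone 3, MAFK, DDI2 and NFE2L2 still passed. Without the clone block neither MAFK (limma adjusted p = 0.4641) nor DDI2 (limma adjusted p = 0.1789) passed.

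Of 12 genes of class I antigen presentation, which uses peptides cut by the immunoproteasome, 3 fell and none rose, so that 25% were called, against 18.9% of all genes called and 9.52% called lower. HLA-B, HLA-C and ERAP1, the peptidase that trims such peptides, fell by 0.33, 0.26 and 0.25 on the log2 scale, each lower in 8 of 8 clones, and all 3 also passed without CC clone 3. HLA-B measured 21.0 to 65.7 units under palmitic acid and 25.0 to 81.8 units in the controls. TAP1, TAP2, B2M and IRF1 had changes between -0.10 and 0.09 and did not pass. Median log2 changes were 0.11 for the partner, 0.12 for the extraction, 0.08 for the ubiquitin, -0.01 for the assembly, 0.08 for the transcription and -0.07 for the class I list, against -0.01 for all tested genes. Like the proteasome genes, none of the genes in these lists passed without the clone block, where the smallest limma adjusted p was 0.1789.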

How the data were processed

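Per the labels' protocols, total RNA was extracted with TRIzol and a column, depleted of ribosomal RNA and made into directional libraries. The submitters' processing notes name Trimmomatic 0.38, Bowtie2, RSEM 1.3.0, edgeR and hg38; neither the annotation nor the strand setting is stated there. The table deposited by the authors holds a normalised signal per gene that divides into whole reads in 100% of values (tolerance 0.01 reads) and matches CPM scaled by TMM factors; it was used as deposited. Log2(value + 0.5) was tested, for the 13095 genes averaging 1 unit or more, with limma 3.58.1 in R 4.3.3 (trend, two-sided, Benjamini-Hochberg at 0.05); a fold on this scale understates the change of low genes. Comparisons of palmitic acid with control used clone as a block: deviations of the 2 libraries of a clone correlated at 0.523 to 0.857, and 8 of 8 libraries correlated best with their own partner. With only 2 CC clones, their deviations from the group mean mirror each other, so their shared value of 0.7437 is 1 observation. Genotype comparisons used 6 group means. Alternatives were edgeR 4.0.16 and DESeq2 1.42.0 on the recovered reads, other scalings, pseudocounts and filters, and each clone left out; the fits were tested on simulated data. The genes named are all 46 by class, with per-library values for those called and the catalytic genes. The members and the gene lists were chosen with earlier results of these data known.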

Additional observations from a re-analysis of the deposited data

Results flagged for a closer look

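The 8 changes of each proteasome gene and of the class medians made 55 sets. In 11 of them a single clone lay far from the other 7. The rule flags about 1 in 20 independent sets by chance. These sets share the same 8 pairs of libraries and the medians reuse the genes, so the 11 cannot be set against that rate. The share of all tested genes flagged by this rule was not computed. CC clone 3 was the outlying clone in 10 of the 11. Its log2 change was 0.36 for the median of all 46 genes, 0.30 for PSMA4, 0.62 for PSMB1, 0.62 for PSMB2, 0.56 for PSMB7, 0.81 for PSMC2, 0.58 for PSMD12 and 0.60 for PSMD6, and on the lower side -0.58 for PSMB8 and -1.66 for PSMB9. PSMG3, an assembly chaperone, was the exception, with 0.42 in GG clone 1.

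For 3 of 138 pairings of a gene with 2 genotypes, every clone of one genotype moved one way and every clone of the other the opposite way. PSMB4 was lower under palmitic acid in all GG clones and higher in all GC clones, with mean changes that differed by -0.13 (GG minus GC), and PSMC3 did the same with a difference of -0.23. PSMG4 was higher in all GC clones and lower in all CC clones, with a difference of 0.34 (GC minus CC). The sign pattern itself was not tested, and its share over all tested genes was not computed. These 3 are thus not shown to exceed the background. The interaction terms of limma had adjusted p-values of 0.9993, 0.9993 and 0.9109.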

How the results depend on the processing

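The count of proteasome genes called under palmitic acid, 6 over the 3 genotypes, was 5 by edgeR, 5 without TMM scaling, 7 with DESeq2 size factors, 7 with a mean of at least 10 units required (44 of the 46 tested), 6 with a pseudocount of 0.1 or 2, and 8 with clones weighted equally. It was 2 by DESeq2 (PSMD14 and PSMA6), 3 with no filter (PSMD14, PSMD2 and PSMD6), and 0 with no replicate block, where 1 of the 46 had an unadjusted p under 0.05. Leaving out each clone gave 0 to 24. The other 12 counts were 0 under every alternative run except 2 that left out a clone: without CC clone 1 they were 1 in GC (PSMD7), 15 in CC, 5 for the GG minus CC change (PSMB2, PSMB7, PSMB9, PSMC2 and PSMD2) and 2 for the GC minus CC change (PSMC2 and PSMD2), and without CC clone 3 it was 1 in GC (PSMD7). The range over left-out clones was thus 0 to 1 in GC, 0 to 15 in CC, 0 to 5 for GG minus CC and 0 to 2 for GC minus CC. Over single genes in the comparison over the 3 genotypes, 58 values lost their call, 27 gained one and no called direction turned. The replicate block as a random effect changed no genotype call. PSMB9, at 11 reads in its shallowest library, is limited by depth. Each genotype weighs equally in the mean over the 3, so leaving out 1 CC clone gives the other the full weight of its genotype. Other causes of these shifts were not tested.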
